A study of Homo sapiens with 12 samples.

Results

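The 10 genes described here encode enzymes that build serine, asparagine and proline and that run the mitochondrial arm of one-carbon metabolism. They were chosen by name from pathway knowledge, with earlier results of these data known. They are PHGDH, PSAT1, PSPH, SHMT2, MTHFD2, MTHFD1L, ALDH1L2, ASNS, PYCR1 and ALDH18A1. All 10 were found among the 23686 gene symbols of the expression table. Of these, 9 passed the filter on low values, which asked for 1 TPM or more in 2 or more of the 12 libraries. ALDH1L2, at 0.02 to 0.55 TPM over the 12 libraries, did not pass and was not tested. TPM, the unit of the table, is a transcript level per gene length that has been brought to the same total in every library.

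RNA was sequenced from MDA-MB-231, a cell line from a breast cancer, and from HCT116, a cell line from a colon cancer, with 2 libraries in each of 6 groups. In each line the groups were IgG as control, IgG with H2O2, and anti-Hsp60N antibody with H2O2. H2O2, an oxidant, was given at 100 µM for 8 h. All groups received an antibody preparation, no group had anti-Hsp60N without H2O2, and no group was left without IgG or antibody. Both lines were grown with 10% serum, MDA-MB-231 in DMEM and HCT116 in a McCoy medium, so that line and medium cannot be told apart. Each line stands for 1 tumour. The labels do not say whether the 2 replicates are separate cultures. The p-values therefore measure only the spread between these libraries, which may be technical.

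The serine pathway leaves glycolysis at 3-phosphoglycerate. PHGDH oxidises it, PSAT1 adds an amino group from glutamate, and PSPH removes the phosphate to give serine. SHMT2 splits serine into glycine and a one-carbon unit carried on folate. Inside mitochondria MTHFD2 oxidises that unit, MTHFD1L releases it as formate for nucleotide synthesis, and ALDH1L2 oxidises it further, yielding NADPH. ASNS makes asparagine from aspartate and glutamine. ALDH18A1 turns glutamate into pyrroline-5-carboxylate, which PYCR1 reduces to proline. Many of these genes are known targets of ATF4, the transcription factor of the integrated stress response, which is translated more when amino acids are short or mitochondria are disturbed.

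The promoter sequences of these genes show where their starts carry the letters linked with ATF4. RefSeq promoter windows of 300 bases, 250 before and 50 after a start, were matched by symbol for 6 of the 10 genes (PHGDH, PSAT1, MTHFD2, MTHFD1L, ASNS and ALDH18A1, with 10 windows in all). The pattern TGATGNAA, a core of C/EBP-ATF response elements, was searched on both strands. It occurred in ASNS and MTHFD1L, 2 of the 6 genes, against 4.46% of all 27305 symbols with a window, and in 3.62% of all 35116 windows. The 30 bases around each match are shown because these genes are among those that rose with H2O2 in HCT116. The capitals mark the pattern, each sequence is printed 5′ to 3′ on the strand that carries it, and positions are from RefSeq on GRCh38.p14.
ASNS, chr7:97872458-97872487, minus strand: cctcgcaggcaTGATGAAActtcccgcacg
MTHFD1L, chr6:150866346-150866375, plus strand: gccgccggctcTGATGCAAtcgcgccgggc

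In ASNS the pattern lies from -68 to -61 relative to 1 of 2 annotated starts, on the coding strand, and the window of the other start does not hold it. In MTHFD1L, which has 4 annotated starts, it lies from -129 to -122 of 1, from -90 to -83 of another and 25 to 32 bases past another, and the window of the remaining start does not hold it. With the shorter letters TGATG, 3 of the 6 genes held a match, against 37.7% of symbols and 32.9% of windows. Among 47 matched genes of the related pathways and regulators described below, 4 held the longer pattern. They are shown because all 4 rose with H2O2 in HCT116, where 15.4% of all tested genes rose. So did 9 of the 14 regulators, the list of CHAC1, CEBPG and ATF3, and 9 of the 45 tested related genes, the list of GOT1. These lists were chosen with earlier results of these data known, and whether pattern and rise go together was not tested. GOT1 is the cytosolic aspartate aminotransferase, CHAC1 degrades glutathione, and CEBPG and ATF3 are transcription factors that partner with or follow ATF4.
GOT1, chr10:99430804-99430833, plus strand: gctgccgagaaTGATGCAAccaatgcaatt
CHAC1, chr15:40953251-40953280, minus strand: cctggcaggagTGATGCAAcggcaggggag
CEBPG, chr19:33374060-33374089, plus strand: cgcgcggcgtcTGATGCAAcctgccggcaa
ATF3, chr1:212565205-212565234, plus strand: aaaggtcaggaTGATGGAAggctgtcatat

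For 2 genes without TGATGNAA in their windows, the 250 bases before the start are shown whole, since PSAT1 was among the genes with the largest rise in HCT116 and ALDH18A1 was the 1 that fell. The motifs in capitals were chosen after the sequences were seen. In PSAT1 the capitals mark CCAAT, the letters known from the factor NF-Y, with 3 copies. At least 3 upstream copies of CCAAT on either strand occurred in 2.93% of windows, and at least 1 copy in 34.6% of windows and in 4 of the 6 genes. In ALDH18A1 they mark TGACGT, a part of cyclic AMP response elements, with 2 copies on opposite strands. TGACGT on either strand occurred in 7.98% of windows and in 1 of the 6 genes. A match of letters is a description and was not tied to any binding measurement.
PSAT1, chr9:78296875-78297124, plus strand: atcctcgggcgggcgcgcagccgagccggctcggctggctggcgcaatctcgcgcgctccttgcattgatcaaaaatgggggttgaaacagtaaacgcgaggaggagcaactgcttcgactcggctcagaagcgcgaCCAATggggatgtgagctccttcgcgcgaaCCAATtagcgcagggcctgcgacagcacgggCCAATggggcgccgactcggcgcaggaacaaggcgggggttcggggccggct
ALDH18A1, chr10:95656712-95656961, minus strand: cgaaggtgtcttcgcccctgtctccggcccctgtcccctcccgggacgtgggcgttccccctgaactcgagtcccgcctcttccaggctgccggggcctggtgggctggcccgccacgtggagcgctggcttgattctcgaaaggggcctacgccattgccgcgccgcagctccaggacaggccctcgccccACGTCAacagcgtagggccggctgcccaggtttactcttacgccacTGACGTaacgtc

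Each library had 12411 to 12653 genes at 1 TPM or more, and the sequencing depth is unknown because TPM keeps none. The 2 libraries of a group had a correlation across genes of 0.994 to 0.996 on the log2(TPM + 1) scale. The summed level of 10 epithelial markers was 6126 to 6440 TPM in HCT116 libraries and 1931 to 2172 TPM in MDA-MB-231 libraries. For 10 mesenchymal markers it was 357 to 394 TPM in HCT116, where 1 marker was at 0 in all 6 libraries, and 3631 to 4181 TPM in MDA-MB-231. For 6 immune markers the sum was 20.7 to 25.8 TPM in HCT116 and 190 to 210 TPM in MDA-MB-231, and for 6 fibroblast or endothelial markers it was 6.02 to 8.39 and 9.6 to 12.9 TPM. The line labels thus fit an epithelial and a mesenchymal-type line, and no library went against its label.

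The first comparison set the lines side by side under IgG. HCT116 had more transcript of all 9 tested genes, from the serine branch to the proline branch. The 10 genes together made up 1535 and 1570 TPM in the IgG libraries of HCT116 and 512 and 522 TPM in those of MDA-MB-231. The distance was widest for MTHFD2, the mitochondrial dehydrogenase and cyclohydrolase, and for PHGDH, the entry enzyme of serine synthesis. It was narrowest for SHMT2 and ALDH18A1.

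MTHFD2 stood at 317 and 308 TPM in HCT116 and at 33.0 and 33.5 TPM in MDA-MB-231, a difference of 3.19 (SE 0.0691) on the log2(TPM + 1) scale, on which all fold changes here are given. PHGDH stood at 120 and 123 TPM in HCT116 and at 14.2 and 14.1 TPM in MDA-MB-231, a difference of 3.02 (SE 0.0585). MDA-MB-231 is widely known as a line with little PHGDH. The 2 libraries of each group lay close together and far from those of the other line.

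PYCR1, the last step to proline, was at 286 and 324 TPM in HCT116 and at 68.9 and 67.5 TPM in MDA-MB-231 (difference 2.14, SE 0.0563). The differences of the others were 1.68 for MTHFD1L, 1.58 for ASNS, 1.16 for PSAT1, 0.93 for PSPH, 0.60 for ALDH18A1 and 0.58 for SHMT2. ALDH1L2, the mitochondrial formyl-folate dehydrogenase, was listed at 0.28 and 0.36 TPM in HCT116 and at 0.02 and 0.08 TPM in MDA-MB-231, low in both lines. For none of the 9 tested genes did the libraries of the lines overlap.

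All 9 passed the threshold of an adjusted p under 0.05 in limma, with 4.96e-07 as the highest adjusted p. The lines differed widely in general, since 82.8% of all tested genes passed, 45.5% with a higher level in HCT116, and 89.7% had libraries that did not overlap. The median difference was 1.58 over the 9 genes and 0.11 over all 13956 tested genes. Median-of-ratios scaling moved the median of all genes to -0.01, and all 9 genes were still called higher. In bulk RNA, fewer cells of a type and less RNA per cell cannot be told apart.

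The order of levels also differed between lines. In MDA-MB-231 under IgG the most abundant of the 10 was SHMT2 at a mean of 153 TPM, followed by PSAT1 at 87.7, PYCR1 at 68.2, ALDH18A1 at 60.3 and ASNS at 55.4 TPM. MTHFD2, MTHFD1L, PSPH and PHGDH were lower, at 33.3, 29.6, 15.1 and 14.1 TPM. In HCT116 under IgG, MTHFD2 at 312 TPM and PYCR1 at 305 TPM came first, and their libraries overlapped. SHMT2 at 229, PSAT1 at 198, ASNS at 168 and PHGDH at 121 TPM followed, before MTHFD1L at 96.9, ALDH18A1 at 91.6 and PSPH at 29.6 TPM. Within a line, no other neighbours in this order had overlapping libraries, although the lower MTHFD1L library of HCT116, at 93.93 TPM, lay just above the higher ALDH18A1 library at 93.87 TPM.

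**Figure D1:**
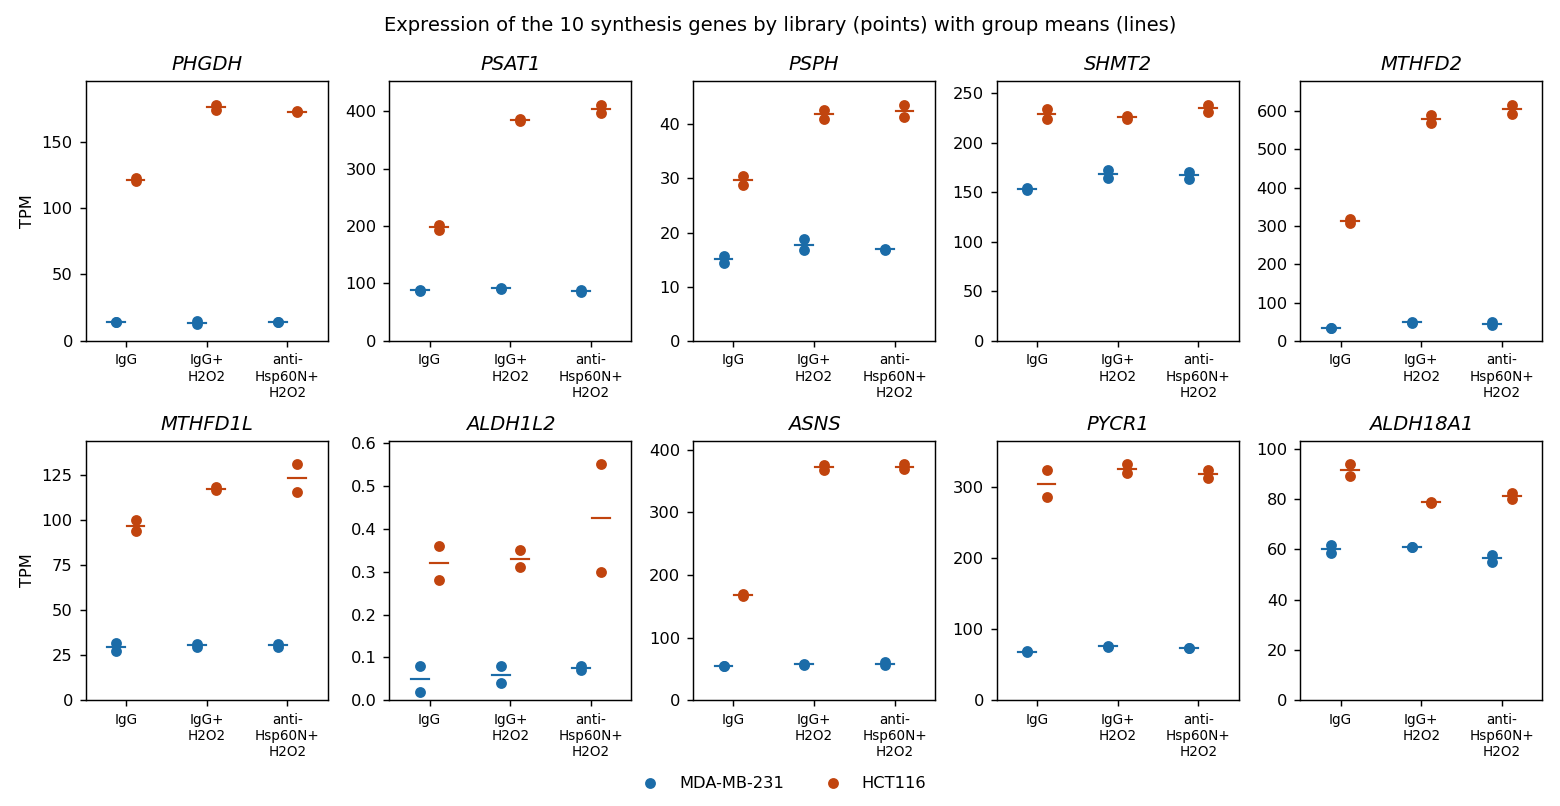
Level of each of the 10 genes in TPM (vertical axis, from 0, with its own range in each panel) in the 3 groups of each line, with 1 point per library (n = 2) and a line at the group mean. In HCT116, PSAT1, MTHFD2 and ASNS stand far higher in the 4 libraries with H2O2 than in the IgG libraries, while in MDA-MB-231 the points of most genes stay near the IgG level.

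The next comparison asked how H2O2 changed these genes in HCT116. The enzymes of serine synthesis rose together with ASNS, MTHFD2 and MTHFD1L, while SHMT2 and PYCR1 did not pass the test and ALDH18A1 fell. The sum of the 10 genes was 2293 and 2311 TPM under IgG with H2O2, a mean of 2302 ± 13.2 (SD, n = 2) against 1552 ± 24.7 (SD, n = 2) under IgG.

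ASNS was at 166 and 169 TPM under IgG and at 368 and 376 TPM with H2O2, a rise of 1.14 (SE 0.0454, limma adjusted p = 5.04e-08). It had the largest rise of the 9. Both H2O2 libraries stood far above both IgG libraries.

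In the serine branch, PSAT1 was at 202 and 193 TPM under IgG and at 383 and 386 TPM with H2O2 (0.96, SE 0.0428, adjusted p = 1.19e-07). PHGDH was at 120 and 123 TPM under IgG and at 178 and 174 TPM with H2O2 (0.53, SE 0.0585, adjusted p = 1.06e-04). PSPH, the phosphatase that completes serine, was at 28.8 and 30.4 TPM under IgG and at 41.1 and 42.7 TPM with H2O2 (0.49, SE 0.0687, adjusted p = 5.20e-04). All 3 enzymes of the branch were higher in both H2O2 libraries than in either IgG library, and the aminotransferase PSAT1 rose the most.

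In the mitochondrial folate branch, MTHFD2 was at 317 and 308 TPM under IgG and at 570 and 589 TPM with H2O2 (0.89, SE 0.0691, adjusted p = 8.30e-06). With H2O2 it was the most abundant of the 10 genes. MTHFD1L, which releases formate, was at 100.0 and 93.9 TPM under IgG and at 117 and 118 TPM with H2O2 (0.27, SE 0.0784, adjusted p = 0.0216). SHMT2, the enzyme that feeds this branch, was at 224 and 234 TPM under IgG and at 224 and 227 TPM with H2O2, and its groups overlapped (-0.02, 95% interval -0.12 to 0.07, adjusted p = 0.738). The ratio of MTHFD2 to SHMT2 in TPM was 1.41 and 1.31 under IgG and 2.54 and 2.60 with H2O2.

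The proline enzymes did not follow ASNS. PYCR1 was at 286 and 324 TPM under IgG and at 332 and 320 TPM with H2O2, with overlapping groups (0.10, 95% interval -0.03 to 0.22, adjusted p = 0.213). ALDH18A1, which makes the precursor of PYCR1, was at 89.3 and 93.9 TPM under IgG and at 78.6 and 78.8 TPM with H2O2, and fell by 0.22 (SE 0.0495, adjusted p = 0.00756). Both H2O2 libraries lay below both IgG libraries. ALDH1L2 was listed at 0.36 and 0.28 TPM under IgG and at 0.35 and 0.31 TPM with H2O2, far below the other 9.

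In all, 6 of the 9 tested genes rose and 1 fell. Over all tested genes 32.9% passed, 15.4% higher and 17.5% lower. Groups did not overlap for 7 of the 9 genes, against 62.8% of all tested genes. The median change was 0.49 over the 9 genes and -0.01 over all tested genes. The call of MTHFD1L was lost when the line was fitted alone (adjusted p = 0.0574) and without HCT116 H2O2 replicate 1 (0.0723), H2O2 replicate 2 (0.0917) or IgG replicate 2 (0.112). PYCR1 passed without IgG replicate 2 (0.19, adjusted p = 0.0224).

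In MDA-MB-231 the same exposure left most of these genes near their IgG level, and 1 of the 9, MTHFD2, rose. MTHFD2 was at 33.0 and 33.5 TPM under IgG and at 49.1 and 47.3 TPM with H2O2 (0.52, SE 0.0691, limma adjusted p = 0.0025). Both H2O2 libraries stood above both IgG libraries. With the line fitted alone its adjusted p was 0.1001. Over all tested genes 2.66% passed, 1.3% with a rise. The sum of the 10 genes was 562 and 568 TPM with H2O2, against 512 and 522 TPM under IgG.

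The other 8 genes of MDA-MB-231 did not pass. PSPH was at 14.5 and 15.6 TPM under IgG and at 18.8 and 16.8 TPM with H2O2 (0.22, SE 0.0687, adjusted p = 0.123). PYCR1 was at 68.9 and 67.5 TPM under IgG and at 75.5 and 77.2 TPM with H2O2 (0.16, SE 0.0563, adjusted p = 0.174). SHMT2 was at 153 and 154 TPM under IgG and at 164 and 173 TPM with H2O2 (0.13, SE 0.0442, adjusted p = 0.150). For these 3 genes the groups did not overlap, as for 6 of the 9 genes and 47.6% of all tested genes.

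ASNS, the gene with the largest rise in HCT116, was at 55.6 and 55.3 TPM under IgG and at 58.1 and 57.1 TPM with H2O2 in MDA-MB-231 (0.05, 95% interval -0.05 to 0.15, adjusted p = 0.620). PSAT1 was at 86.7 and 88.7 TPM and then at 90.9 and 91.8 TPM (0.06, 95% interval -0.04 to 0.15, adjusted p = 0.555). PHGDH was at 14.2 and 14.1 TPM and then at 12.9 and 14.7 TPM (-0.04, 95% interval -0.17 to 0.09, adjusted p = 0.818). For PHGDH the IgG values fell between the H2O2 values. MTHFD1L (0.04, adjusted p = 0.860) and ALDH18A1 (0.02, adjusted p = 0.923) also had overlapping groups. The median change was 0.06 over the 9 genes and 0.03 over all tested genes.

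**Figure D2:**
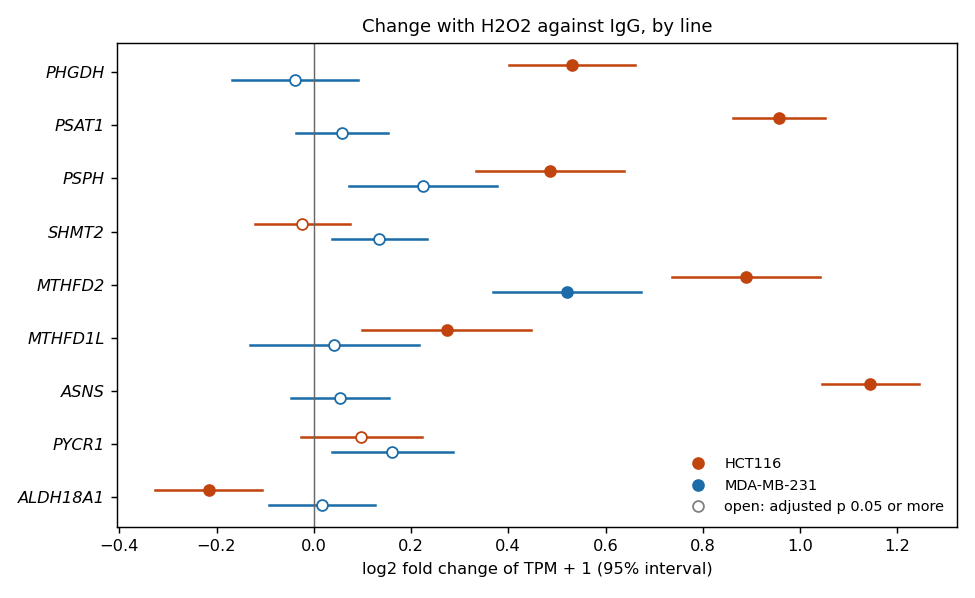
Change with H2O2 against IgG for the 9 tested genes in each line, as log2 fold change of TPM + 1 (horizontal axis), with the 95% interval of the limma fit (n = 2 libraries a group) and filled points for an adjusted p under 0.05. ASNS, PSAT1 and MTHFD2 lie farthest right in HCT116 at 1.14, 0.96 and 0.89, and MTHFD2 at 0.52 is the 1 filled point of MDA-MB-231.

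The difference between the lines in the H2O2 change was tested directly. It passed for 5 of the 9 genes, 4 with a higher and 1 with a lower change in HCT116. Of all tested genes 17.4% passed, 7.65% with a higher and 9.72% with a lower change in HCT116. ASNS rose by 1.09 more in HCT116 (SE 0.0642, adjusted p = 3.04e-06), PSAT1 by 0.90 more (SE 0.0606, adjusted p = 8.34e-06) and PHGDH by 0.57 more (SE 0.0827, adjusted p = 0.00161). These are the enzymes that make asparagine and that open the serine branch.

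For MTHFD2, the 1 gene that rose in both lines, the rise was larger in HCT116 by 0.37 (SE 0.0977, adjusted p = 0.0279). This difference did not pass in 8 alternatives, with adjusted p of 0.0504 to 0.0942. They included no filter on low values. The others left out either MDA-MB-231 IgG library, HCT116 IgG replicate 2, or any of the 4 libraries with IgG and H2O2. For ALDH18A1 the difference was -0.23 (SE 0.07, adjusted p = 0.0436), and it did not pass in 10 alternatives (0.0631 to 0.127). Those 10 included quantile normalization and the replicate block (0.0749). The others left out MDA-MB-231 IgG replicate 1, HCT116 IgG replicate 2, any of the 4 libraries with IgG and H2O2, or either HCT116 anti-Hsp60N library.

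PSPH (0.26, adjusted p = 0.0915), MTHFD1L (0.23, 0.178), SHMT2 (-0.16, 0.108) and PYCR1 (-0.06, 0.623) did not pass. PSPH passed with median-of-ratios scaling (0.29, adjusted p = 0.0439) and quantile normalization (0.33, 0.0251), and MTHFD1L with quantile normalization (0.33, 0.0438). The change of PSPH and MTHFD1L thus passed in HCT116 and not in MDA-MB-231, without a called difference between the lines as deposited.

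Several of the 10 enzymes have a paralog that serves the same step elsewhere in the cell or as another isozyme, and several of these paralogs fell in HCT116. SHMT1, the cytosolic partner of SHMT2, was at 54.6 and 54.7 TPM under IgG and at 41.5 and 39.9 TPM with H2O2, and fell by 0.42 (SE 0.0736, adjusted p = 0.00184). MTHFD1, the cytosolic enzyme that joins the activities of MTHFD2 and MTHFD1L, was at 137 and 136 TPM under IgG and at 118 and 120 TPM with H2O2, and fell by 0.20 (SE 0.0402, adjusted p = 0.00375). In both genes each H2O2 library was below each IgG library.

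The balance of mitochondrial to cytosolic transcripts can be read within each library. The ratio of MTHFD2 to MTHFD1 in HCT116 was 2.31 and 2.25 under IgG and 4.84 and 4.90 with H2O2. In MDA-MB-231 it was 0.307 and 0.309 under IgG and 0.401 and 0.381 with H2O2. MTHFD1 thus exceeded MTHFD2 in every MDA-MB-231 library and was below it in every HCT116 library. The ratio of MTHFD1L to MTHFD1 in HCT116 went from 0.729 and 0.688 to 0.991 and 0.983, and that of SHMT2 to SHMT1 from 4.11 and 4.29 to 5.40 and 5.69. In MDA-MB-231 the ratio of MTHFD1L to MTHFD1 was 0.255 and 0.293 under IgG and 0.256 and 0.238 with H2O2. That of SHMT2 to SHMT1 was 5.00 and 5.20 under IgG, above the HCT116 values, and 5.43 and 5.76 with H2O2. The order of the lines thus differed between enzyme pairs. A ratio within a library shows unequal change, and for SHMT2 in HCT116 it came with a called fall of SHMT1 and no called change of SHMT2.

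MTHFD2L, a mitochondrial isozyme of MTHFD2, stayed low, at 5.10 and 6.27 TPM under IgG and 5.78 and 6.91 TPM with H2O2 in HCT116 (0.14, adjusted p = 0.345). In MDA-MB-231 it was at 2.65 and 2.83 TPM under IgG and 3.98 and 3.97 TPM with H2O2 (0.41, adjusted p = 0.0663), and it passed without either HCT116 IgG library (0.0433 and 0.0437). ALDH1L1, the cytosolic counterpart of ALDH1L2, was listed at 0 to 1.01 TPM and was not tested. PYCRL, a cytosolic reductase that makes proline as PYCR1 does, was at 23.1 and 28.8 TPM under IgG and at 18.8 and 19.9 TPM with H2O2 in HCT116 and fell by 0.40 (adjusted p = 0.0143). This call was lost with the line fitted alone (0.0976) and without H2O2 replicate 1 (0.0805) or IgG replicate 2 (-0.24, 0.109).

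In MDA-MB-231, MTHFD1 was at 108 and 108 TPM under IgG and at 122 and 124 TPM with H2O2 and rose by 0.19 (adjusted p = 0.0354), a call lost in 11 alternatives (adjusted p up to 0.248). They included median-of-ratios scaling, the line fitted alone and the replicate block (0.078). The others left out any of the 4 libraries of that line without anti-Hsp60N, or any of the 4 HCT116 libraries with H2O2. SHMT1 was at 30.5 and 29.6 TPM under IgG and at 30.2 and 30.0 TPM with H2O2 (0.00). PYCRL (0.23, adjusted p = 0.304) did not pass. The H2O2 change was lower in HCT116 by 0.39 for MTHFD1 (SE 0.0569, adjusted p = 0.00166), by 0.42 for SHMT1 (SE 0.104, adjusted p = 0.0212) and by 0.63 for PYCRL (SE 0.1475, adjusted p = 0.0167). It was not called for MTHFD2L (-0.28, adjusted p = 0.219). The call of this difference between lines was lost in 4 alternatives for SHMT1 and in 3 for PYCRL, each without 1 library. Leaving out 1 library at a time, the difference ran from -0.4461 to -0.3907 for SHMT1 and from -0.7812 to -0.472 for PYCRL.

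**Figure D3:**
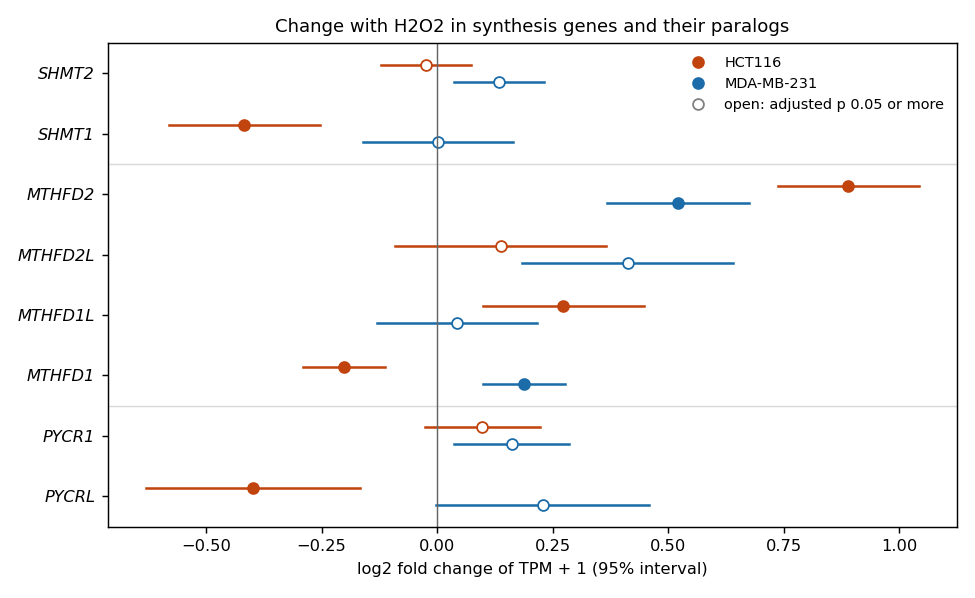
Change with H2O2 against IgG, as log2 fold change of TPM + 1 with its 95% interval (horizontal axis, n = 2 libraries a group), for enzymes of the set beside paralogs of the same step. In HCT116, SHMT1 at -0.42, MTHFD1 at -0.20 and PYCRL at -0.40 lie to the left of 0, while MTHFD2 at 0.89 lies to the right.

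The pathways that supply or use these amino acids and one-carbon units were followed in 6 further lists of 48 genes, of which 45 were tested. In HCT116, 9 of the 45 rose and 15 fell with H2O2, with a median of -0.04, beside 15.4% higher and 17.5% lower over all tested genes. This count of 24 lay between 13 and 25 over the alternatives. It was 15 with the line fitted alone, 13 without HCT116 H2O2 replicate 1 and 16 without H2O2 replicate 2.

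Folate enzymes and carriers outside the 10 genes had 7 called lower and 0 higher of 12 tested, where 17.5% of all tested genes were lower and 15.4% higher. Of the 7, SFXN1 lost its call in 12 alternatives (adjusted p = 0.0578 to 0.405), FPGS in 3 and MTFMT in 1. TYMS, which makes thymidylate, had a mean of 372 TPM under IgG and 302 TPM with H2O2 and fell by 0.30 (adjusted p = 8.11e-04). SLC19A1, the folate carrier of the plasma membrane, was at 42.5 and 59.0 TPM under IgG and at 34.7 and 31.4 TPM with H2O2 and fell by 0.59 (adjusted p = 0.00649). Its call was lost with a pseudocount of 0.1 (0.167), with the line fitted alone (0.0723) and without H2O2 replicate 2 (0.0517), and without IgG replicate 2 the change was -0.36. In the glycine cleavage system 2 of 4 genes fell, GCSH by 0.30 and DLD by 0.20 (adjusted p = 0.0135 and 0.0179). Both of these calls were lost without IgG replicate 1 and without either H2O2 replicate (0.0559 to 0.101), and that of GCSH also with the line fitted alone (0.0667).

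Of the 6 purine synthesis genes, which take up formyl groups at the steps of GART and ATIC, GART rose by 0.30 (adjusted p = 7.00e-04). ADSL fell by 0.23 (adjusted p = 0.00543), PAICS by 0.21 (0.00836) and ATIC by 0.20 (0.0115). The call of PAICS was lost with the line fitted alone (0.066) and without H2O2 replicate 1 (0.0723), and that of ATIC with quantile normalization (0.0552) and without H2O2 replicate 1 (0.0816). In the methionine and transsulfuration list, 1 of 5 rose and 1 fell. CTH, which makes cysteine from cystathionine, went from a mean of 6.22 TPM to 10.0 TPM and rose by 0.61 (adjusted p = 2.58e-04).

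The aspartate, glutamine and alanine list had 4 of 9 genes called higher and 1 lower in HCT116, beside the same 15.4% and 17.5% of all tested genes. GOT1, which in the cytosol interconverts aspartate and glutamate, was at 114 and 128 TPM under IgG and at 296 and 294 TPM with H2O2 and rose by 1.28 (SE 0.0616, adjusted p = 2.04e-07). GPT2, the mitochondrial alanine aminotransferase, went from 25.5 and 26.7 TPM to 50.7 and 50.9 TPM and rose by 0.93 (SE 0.0596, adjusted p = 1.99e-06). GOT2, the mitochondrial partner of GOT1, fell by 0.21 (adjusted p = 0.00721), a call lost without H2O2 replicate 1 (0.0573). GOT1 and GPT2 had changes of the size seen for ASNS, PSAT1 and MTHFD2, and for both of them the groups did not overlap. Of the 9 other proline and ornithine genes, 3 rose and 1 fell. P4HA1, a prolyl hydroxylase of collagen, rose by 0.56 (adjusted p = 0.00874), a call lost with the line fitted alone (0.105) and without IgG replicate 2 (0.33, 0.055) or H2O2 replicate 2 (0.0614).

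In MDA-MB-231, 4 of the 45 genes rose and 1 fell, with a median of 0.04, where 2.66% of all tested genes were called and 1.3% rose. ODC1, the first enzyme of polyamine synthesis, had a mean of 203 TPM under IgG and 256 TPM with H2O2 (0.34, adjusted p = 0.00566). SFXN1, the mitochondrial serine transporter, rose by 0.24 (adjusted p = 0.0291), GPT2 by 0.26 (0.0439) and MTHFD1 as given above, and MAT2A, which makes S-adenosylmethionine, fell by 0.25 (0.0333). The count of 5 was 0 with the line fitted alone and without MDA-MB-231 H2O2 replicate 2. It was 1 with the replicate block and without either IgG replicate or H2O2 replicate 1 of that line, and 2 without any of the 4 HCT116 libraries with H2O2.

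**Figure D4:**
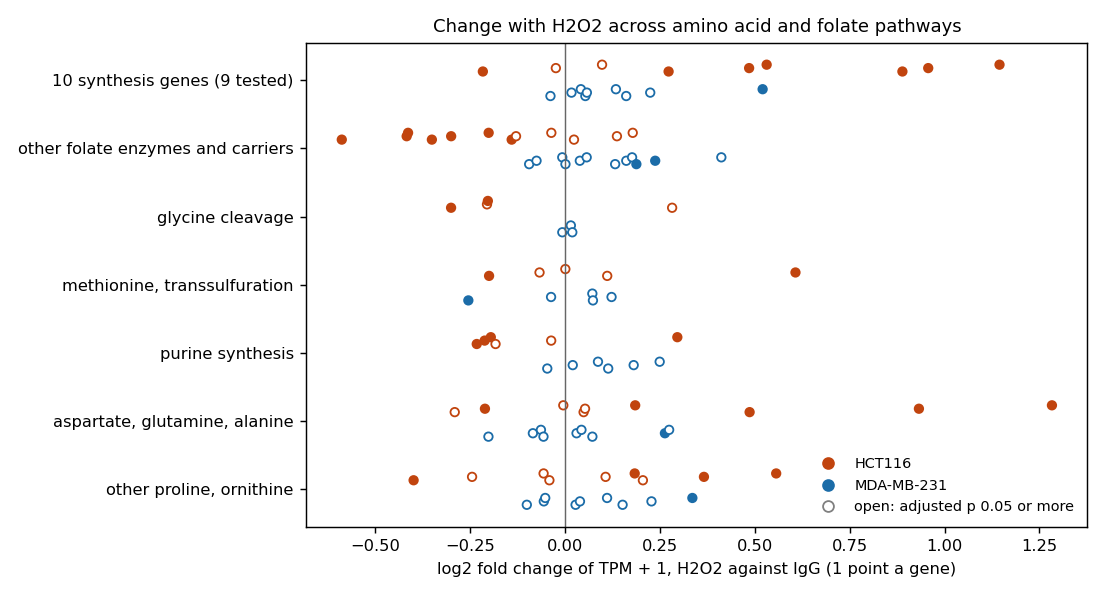
Change with H2O2 against IgG in the 10 genes and in 6 related pathway lists, as log2 fold change of TPM + 1 (horizontal axis), with 1 point per tested gene, HCT116 above MDA-MB-231 in each row and filled points for an adjusted p under 0.05. The HCT116 points of the other folate enzymes that are filled all lie left of 0, while GOT1 at 1.28 and GPT2 at 0.93 lie far right in the aspartate, glutamine and alanine row.

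A list of 14 genes, called regulators here, was read alongside. It includes CHAC1, which degrades glutathione, and HSPD1, the gene of Hsp60, so its counts are not of regulators alone. ATF4 was at 509 and 457 TPM under IgG and at 925 and 979 TPM with H2O2 in HCT116 and rose by 0.98 (SE 0.0532, adjusted p = 5.50e-07). In MDA-MB-231 it was at 306 and 304 TPM under IgG and at 396 and 390 TPM with H2O2 and rose by 0.36 (SE 0.0532, adjusted p = 0.00497). That call was lost without H2O2 replicate 1 (0.06). The rise was larger in HCT116 by 0.62 (SE 0.0752, adjusted p = 5.49e-04). The transcript of ATF4 thus rose in both lines. ASNS, PSAT1 and PHGDH were called in HCT116 and not in MDA-MB-231, with a called difference between the lines for each of these 3.

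DDIT3, which encodes the stress factor CHOP, was at 26.0 and 29.6 TPM under IgG and at 185 and 182 TPM with H2O2 in HCT116 and rose by 2.68 (SE 0.0944, adjusted p = 2.19e-08). In MDA-MB-231 it was at 43.5 and 45.1 TPM and then at 48.2 and 43.2 TPM (0.04, adjusted p = 0.891), and the difference between lines was 2.64 (SE 0.1334, adjusted p = 1.07e-06). Among the 14 regulators, 9 rose and 3 fell in HCT116 (15.4% and 17.5% of all tested genes), and 3 rose in MDA-MB-231 (1.3% of all tested genes). In HCT116 the fall of EIF2AK1 was lost in 14 alternatives (adjusted p = 0.0521 to 0.298), and in MDA-MB-231 the rise of CEBPG was lost in 10 (0.069 to 0.219) and that of TRIB3 in 6 (0.0558 to 0.168). The largest rise in HCT116 was that of CHAC1 at 3.40, and TRIB3, ATF3 and CEBPG rose by 2.10, 2.17 and 1.119.

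HSPD1, the gene of Hsp60, was at 1965 and 1861 TPM under IgG and at 1625 and 1749 TPM with H2O2 in HCT116 and fell by 0.18 (adjusted p = 0.0147). In MDA-MB-231 it was at 633 and 666 TPM and then at 709 and 687 TPM (0.10, adjusted p = 0.308), and the change was lower in HCT116 by 0.28 (adjusted p = 0.0172). The fall in HCT116 was lost with quantile normalization (0.0709), with the line fitted alone (0.0805) and without IgG replicate 1 (0.0803) or H2O2 replicate 1 (0.121). The difference was lost with quantile normalization and without MDA-MB-231 IgG replicate 1, MDA-MB-231 H2O2 replicate 1 or HCT116 H2O2 replicate 1 (0.0628 to 0.0696).

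The last comparison asked whether the anti-Hsp60N antibody altered these genes under H2O2. In HCT116, ASNS was at 369 and 377 TPM with antibody and H2O2 and at 368 and 376 TPM with IgG and H2O2. PSAT1 was at 397 and 411 TPM with antibody and at 383 and 386 TPM with IgG, and MTHFD2 was at 593 and 617 TPM against 570 and 589 TPM. PHGDH was at 173 TPM in both antibody libraries and at 178 and 174 TPM in those with IgG and H2O2. These small shifts went both ways, the values of ASNS interleaved, and none of the changes passed the test.

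None of the 9 genes passed in HCT116. Their changes with antibody under H2O2 ranged from -0.03 to 0.07, their 95% intervals together spanned -0.16 to 0.24, and the lowest adjusted p in limma was 0.920. An unadjusted p under 0.05 was reached by 0 of them, and 0.0215% of all tested genes passed. In MDA-MB-231 again 0 of 9 passed, with changes of -0.12 to 0.04, intervals within -0.28 to 0.17, a lowest adjusted p of 0.386 and 0 unadjusted p under 0.05, while 0.0143% of all tested genes passed. There MTHFD2 was at 48.2 and 40.4 TPM with antibody and at 49.1 and 47.3 TPM with IgG, so that 1 antibody library lay within the H2O2 range and 1 below it. The difference between lines in the antibody change passed for 0 of 9 genes, with 1 unadjusted p under 0.05 and 0.0287% of all tested genes called.

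The antibody groups were also set against IgG alone, a comparison that shares its IgG libraries with the H2O2 comparison. In HCT116, 6 of 9 genes were called higher and 1 lower, with 34.3% of all tested genes called, 16.8% higher and 17.5% lower. The changes were 1.15 for ASNS, 1.03 for PSAT1, 0.95 for MTHFD2, 0.50 for PHGDH, 0.50 for PSPH, 0.34 for MTHFD1L (adjusted p = 0.00699) and -0.17 for ALDH18A1 (adjusted p = 0.0223). The call of MTHFD1L was lost without antibody replicate 2 (0.0711). That of ALDH18A1 was lost with quantile normalization (0.0547) and without antibody replicate 1 (0.0598), antibody replicate 2 (0.127) or IgG replicate 2 (0.119). In MDA-MB-231, MTHFD2 was the 1 gene called, at 0.40 (SE 0.0691, adjusted p = 0.0109), with 3.4% of all tested genes called. This call was lost with the line fitted alone (0.127) and without IgG replicate 1 (0.0636) or 2 (0.083).

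Some of the 10 genes overlap others on the opposite strand, and no source used here gives a strand setting for the counting. In the GENCODE 29 annotation, MTHFD2 overlaps SLC4A5, listed at up to 8.88 TPM, SHMT2 overlaps NDUFA4L2, at up to 2.03 TPM, and ALDH1L2 overlaps C12orf45, at up to 59.0 TPM. For MTHFD2 and SHMT2 in HCT116 these overlapping genes were thus far lower than the enzymes, while for ALDH1L2 the level of the neighbour was far higher. In MDA-MB-231, MTHFD2 was at 33.0 to 49.1 TPM, nearer to the highest level of SLC4A5. ASNS, MTHFD1L, PYCR1, MTHFD2 and SHMT2 also overlap opposite-strand genes that are absent from the expression table, so the levels of those are unknown.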

How the data were processed

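The authors deposited TPM per gene symbol, estimated with bcl2fastq 2.20, STAR and RSEM on hg19 per the submitters' processing notes, which give no role or order of these tools. The sources used here give neither versions of STAR and RSEM nor the annotation or strand setting. From these TPM, log2(TPM + 1) was computed, which understates the change of low genes. The 13956 genes reaching 1 TPM in 2 or more of 12 libraries were kept. A limma fit (version 3.58.1, R 4.3.3) with a variance trend was made on 6 group means over all 12 libraries (6 residual and 4.63 prior degrees of freedom), two-sided, with Benjamini-Hochberg adjustment over all kept genes and a threshold of 0.05, and was tested on simulated data. There were 9 comparisons. Depth is unknown, so no counting intervals are given.

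The 10 genes and all lists were chosen with earlier results of these data known. Named genes were all 10, up to 4 of smallest p per related list past the threshold, paralogs of the same step (with exceptions not reported here), ATF4, DDIT3 and HSPD1; CHAC1, CEBPG, ATF3, TRIB3, EIF2AK1, FPGS and MTFMT were named after their values were seen. Alternatives were a pseudocount of 0.1, no filter, a mean TPM of at least 5, median-of-ratios scaling, quantile normalization, each line alone, a replicate block, and leaving out each library. Promoter windows came from RefSeq on GRCh38.p14, a build apart from the expression values, with no coordinates converted. Figures used Python 3.11.15 and matplotlib 3.10.9.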

Additional observations from a re-analysis of the deposited data

Results flagged for a closer look

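The following changes with H2O2 differed between the lines by the limma test of the difference itself (HCT116 minus MDA-MB-231, adjusted p under 0.05). Among the synthesis genes they were 1.09 for ASNS (adjusted p = 3.04e-06), 0.90 for PSAT1 (8.34e-06), 0.57 for PHGDH (0.00161), 0.37 for MTHFD2 (0.0279) and -0.23 for ALDH18A1 (0.0436). Among the paralogs they were -0.63 for PYCRL (0.0167), -0.42 for SHMT1 (0.0212) and -0.39 for MTHFD1 (0.00166). Of the 14 regulators, 8 had a higher and 2 a lower change in HCT116 by this test, beside 7.65% and 9.72% of all tested genes. The largest difference among them was 3.33 for CHAC1 (2.13e-07). It was 2.64 for DDIT3 (1.07e-06), 0.62 for ATF4 (5.49e-04) and -0.28 for HSPD1 (0.0172). The calls of MTHFD2, ALDH18A1, PYCRL, SHMT1 and HSPD1 were lost in some alternatives, as given above. Groups of 2 libraries are too small to look for a library far from the others.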

How the results depend on the processing

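Over 97 single-gene results and 1815 alternatives, 1635 kept their direction and their side of the threshold, 161 lost and 6 gained a call, and 13 changed sign, all 13 in values that were not called. With median-of-ratios scaling and quantile normalization the H2O2 change in MDA-MB-231 became -0.014 and -0.0072 for ALDH18A1 and -0.0294 and -0.028 for SHMT1, and with quantile normalization that of SHMT2 in HCT116 became 0.0546. Leaving out 1 library at a time, the H2O2 change in MDA-MB-231 ran from -0.127 to 0.0511 for PHGDH, from -0.0601 to 0.1443 for MTHFD1L, from -0.021 to 0.0557 for ALDH18A1, from -0.0203 to 0.0234 for SHMT1 and from -0.0346 to 0.1203 for DDIT3. That of SHMT2 in HCT116 ran from -0.0553 to 0.0077, and the difference between lines ran from -0.1528 to 0.0256 for PYCR1. The count of synthesis genes called was 0 in MDA-MB-231 with the line fitted alone, for H2O2 and for antibody with H2O2 against IgG. Leaving out 1 library gave 0 to 1 for the latter, and 3 to 5 for the difference in the H2O2 change (3 without any of the 4 H2O2 libraries without antibody, MDA-MB-231 IgG replicate 1 or HCT116 IgG replicate 2). The cause was not tested. For antibody against IgG under H2O2 the count was 0 in every alternative. Over the alternatives, calls among all genes with H2O2 ran from 86 to 443 in MDA-MB-231 (371 as reported) and from 3002 to 4793 in HCT116 (4592), and those of the difference from 1256 to 2427 (2423).

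The replicate numbers share no stated batch, and deviations of same-numbered libraries correlated at 0.104, 0.164 and 0.012 in MDA-MB-231 and at -0.127, 0.0552 and 0.0458 in HCT116, so pairing was not shown. With the replicate block, 1 synthesis gene was called with H2O2 in MDA-MB-231, 7 in HCT116, 4 for the difference and 9 between the lines. Lines fitted alone give no comparison between lines. TPM keeps no depth, so low genes such as ALDH1L2 have an unknown error.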

Other observations

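Outside the 10 genes, the 5 whose log2(TPM + 1), centred within each line, followed the centred mean of the tested synthesis genes most closely over the 12 libraries were SLC7A11 (Pearson r = 0.995), TNFAIP3 (0.995), SLC7A1 (0.992), TXNRD1 (0.992) and AGPAT9 (0.992). The libraries share line and treatment, so these values are a description. SLC7A11, the cystine transporter, went with H2O2 from a mean of 16.0 to 70.4 TPM in HCT116 and from 7.80 to 13.3 TPM in MDA-MB-231. SLC7A1, a transporter of arginine and lysine, went from 41.3 to 94.6 TPM in HCT116 and from 44.0 to 51.1 TPM in MDA-MB-231. TXNRD1, the cytosolic thioredoxin reductase, went from 263 to 699 TPM in HCT116 and from 300 to 431 TPM in MDA-MB-231. TNFAIP3, an inhibitor of NF-kappaB signalling, was low in HCT116, at 1.77 and then 4.08 TPM, and stood at 14.5 and then 17.8 TPM in MDA-MB-231. AGPAT9 went from 73.6 to 128 TPM in HCT116 and from 60.2 to 66.5 TPM in MDA-MB-231.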
